A study of Mus musculus with 9 samples.

Results

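This account covers the genes that make, take up, export and esterify cholesterol in mouse liver. The set held 33 named genes: 18 enzymes of cholesterol synthesis, 4 genes of SREBP control, 5 of uptake and intracellular transport, 3 of efflux and 3 of esterification. A gene's value was the sum of its uniquely mapped reads across annotated splice junctions, so the 33 members were a part of 15493 genes with at least 1 such read. After a filter on low counts 10897 genes were tested, 31 members among them. Idi1 and Npc1l1 did not pass that filter and are described by their reads.

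The study compared 3 groups of C57BL/6 livers with 3 libraries each: wild type (WT), mice with an inducible YAP transgene (YAP), and mice with that transgene and a knockout of Lsd1 (YAP_Lsd1ko). YAP is the transcriptional co-activator restrained by the Hippo pathway, and Kdm1a encodes LSD1, which removes methyl groups from histones. Every mouse, WT included, had received an AAV8 vector carrying Cre by intraperitoneal injection, and doxycycline at 30 mg/L in the drinking water for 14 days switched the transgene on. No group carried the Lsd1 knockout alone, so the comparison of YAP_Lsd1ko with YAP sets groups that both carry the transgene side by side. Nothing in the labels ties the 3 libraries of a group to separate mice, so p-values measure the spread between libraries, which may be technical.

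Hepatocytes build cholesterol from acetyl-CoA through mevalonate, the isoprenoid diphosphates, squalene and lanosterol. When sterols in the endoplasmic reticulum run low, SCAP escorts the membrane-bound factor SREBP2 to the Golgi, where it is cut and released to the nucleus to raise transcription of these enzymes; INSIG proteins hold SCAP back when sterols are plentiful. Liver also takes up lipoprotein cholesterol, stores it as esters, loads it onto apolipoproteins through ABCA1 and secretes it into bile through the ABCG5 and ABCG8 pair.

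Promoter sequence was read from RefSeq (build GRCm38.p6), where 26 of the 33 members had an entry. CCAAT, the box bound by NF-Y, a factor known to work beside SREBP2, was searched on both strands in the 250 bases before the annotated start. It was present in 14 of the 15 synthesis genes with an entry (93.3%) and in 22 of all 26 members (84.6%), against 37.5% of the 27025 genes in the table and 40.7% of the 8683 tested genes with an entry. The sterol regulatory element core, searched as TCACNCCAC, was present in Hmgcs1 alone of the 15 synthesis genes, against 1.22% of all genes in the table. A direct repeat bound by nuclear receptors, GGTCA followed after any 4 bases by a second GGTCA, was found in none of the 26 members and in 0.0518% of all genes. Each motif was searched as an exact match, so copies with a changed base were not counted. Absence of a match therefore does not show that a promoter lacks such an element. No match of any of these motifs overlapped another in the members, and a match is a description of the letters, not a binding site.

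The 200 bases before the start are shown for Hmgcs1, Mvk, Ebp, Sc5d and Insig2, whose transcripts fell in YAP livers. They are also shown for Mvd, which carries CCAAT and did not pass the test, and for Abca1. WT and YAP levels of Abca1 overlapped, and its window holds no exact match to CCAAT or TCACNCCAC. Capitals mark CCAAT or its reverse complement ATTGG and, in Hmgcs1, the TCACCCCAC match from 137 to 129 bases before the start. Each sequence is the coding strand, 5′ to 3′.
Hmgcs1, chr13:119690151-119690350, plus strand: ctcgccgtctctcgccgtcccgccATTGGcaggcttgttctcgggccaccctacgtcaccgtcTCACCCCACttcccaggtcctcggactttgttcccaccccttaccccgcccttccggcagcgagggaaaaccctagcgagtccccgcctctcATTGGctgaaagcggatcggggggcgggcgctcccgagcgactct
Mvk, chr5:114444069-114444268, plus strand: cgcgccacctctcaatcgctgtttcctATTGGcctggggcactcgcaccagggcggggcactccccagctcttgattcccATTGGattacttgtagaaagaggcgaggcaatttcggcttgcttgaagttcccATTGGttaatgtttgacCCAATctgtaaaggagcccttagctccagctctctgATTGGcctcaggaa
Ebp, chrX:8193513-8193712, minus strand: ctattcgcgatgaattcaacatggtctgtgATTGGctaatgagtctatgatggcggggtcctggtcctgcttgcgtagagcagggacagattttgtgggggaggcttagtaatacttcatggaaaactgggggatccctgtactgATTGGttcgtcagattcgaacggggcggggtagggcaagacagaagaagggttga
Sc5d, chr9:42264301-42264500, minus strand: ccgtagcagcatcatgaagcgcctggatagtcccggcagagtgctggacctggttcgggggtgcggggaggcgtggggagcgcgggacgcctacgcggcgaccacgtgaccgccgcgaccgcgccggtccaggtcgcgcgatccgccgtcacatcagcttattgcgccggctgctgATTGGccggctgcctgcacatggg
Insig2, chr1:121332590-121332789, minus strand: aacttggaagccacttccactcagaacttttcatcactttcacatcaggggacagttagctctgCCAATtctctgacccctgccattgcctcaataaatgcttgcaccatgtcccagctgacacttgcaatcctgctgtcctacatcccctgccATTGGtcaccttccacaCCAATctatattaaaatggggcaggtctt
Mvd, chr8:122443423-122443622, minus strand: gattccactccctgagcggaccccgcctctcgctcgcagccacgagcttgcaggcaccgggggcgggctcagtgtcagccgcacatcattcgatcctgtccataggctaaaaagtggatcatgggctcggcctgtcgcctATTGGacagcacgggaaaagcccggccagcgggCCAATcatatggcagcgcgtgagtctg
Abca1, chr4:53159896-53160095, minus strand: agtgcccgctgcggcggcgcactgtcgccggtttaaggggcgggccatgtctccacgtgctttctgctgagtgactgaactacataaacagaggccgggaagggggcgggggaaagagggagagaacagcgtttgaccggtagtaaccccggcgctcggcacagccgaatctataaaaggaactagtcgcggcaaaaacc

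Hmgcs1 holds ATTGG on either side of the sterol element within this window and a further ATTGG beyond it. Mvk holds 5 CCAAT boxes, Insig2 holds 3, and Ebp and Mvd hold a pair each. Sc5d has a single box, from 24 to 20 bases before the RefSeq start. In the annotation used for the junction reads, Hmgcs1 begins at 119690379, and Sc5d, on the minus strand, begins at 42264256. Their RefSeq starts lie outside these spans, so positions given for Hmgcs1 and Sc5d hold for the RefSeq start alone. Abcg8 has 2 CCAAT boxes before its start, and its neighbour Abcg5 has none.

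The libraries held between 6910297 and 9925154 uniquely mapped junction reads, of which 6516711 to 9267028 fell on junctions of a single gene. Multi-mapped junction reads differed far more, at 17283950, 3403801 and 11215790 in WT and 1307895 to 1322428 in YAP. In YAP_Lsd1ko they numbered 2701326, 10158036 and 9203106. They entered none of the main comparisons. Levels are given as CPM after TMM scaling, which divides a gene's reads by the scaled total of its library. Kdm1a stood at 30.1, 38.3 and 31.3 CPM in WT; 36.7, 42.7 and 46.2 were the YAP values, and the YAP_Lsd1ko values were 15.8, 35.4 and 25.3. The library labelled YAP_Lsd1ko replicate 2 was thus within the WT range, and over the 3 libraries the difference from YAP did not pass (-0.72, SE 0.25, edgeR adjusted p = 0.186). The member counts, sums, ratios and list counts of that group are given with and without it. Yap1 rose from 17.4 to 19.8 CPM in WT to 66.8 to 78.8 in YAP (log2 fold change 1.99, edgeR adjusted p = 0.000324), and at 30.4 to 47.7 it was lower in YAP_Lsd1ko than in YAP (-0.98, edgeR adjusted p = 0.0213). The summed level of 10 hepatocyte markers ran from 39534 to 60529 CPM in WT, from 21476 to 33613 in YAP and from 26248 to 48237 in YAP_Lsd1ko, with none of them at 0. Sums of 10 Kupffer cell and macrophage markers were 528 to 1120, 2398 to 2809 and 516 to 2399 CPM, again with none at 0, and those of biliary markers were 53.8 to 108, 970 to 1154 and 158 to 621. These sums moved with the groups, and their part in the results below was not tested. In whole tissue, fewer cells of a type and less RNA per cell cannot be told apart.

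YAP livers had less transcript of most cholesterol synthesis enzymes than WT livers. Of the 31 tested members 17 fell and 0 rose, by edgeR's quasi-likelihood test with Benjamini-Hochberg adjustment over all genes tested; over all genes 10% fell and 7.44% rose (17.4% passed in either direction). Scaling by library size alone, in place of TMM, shifted the median of all genes by 0.31 and the share of calls that were higher from 42.7% to 75.9%, with 15 members lower and 1, Mylip, higher. At an unadjusted p under 0.05 edgeR counted 20 members lower and 2 higher among 3752 of the 10897 genes, and DESeq2 passed 18, all lower, among 2508 genes. The median log2 fold change was -0.75 over the members, against 4.13e-05 over all genes, and 26 of 31 members were below 0. In 20 members every YAP library was below every WT library, and in 1, Soat1, every YAP library was above; the same held for 22.8% and 21.5% of all genes. By role, 12 of 17 synthesis enzymes passed, 2 of 4 genes of SREBP control and 1 of 4 of uptake and intracellular transport. In efflux 1 of 3 passed, and in esterification 1 of 3. No test compared the roles.

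Leaving out replicate 3 of every group left 0 members and 0 genes passing edgeR's test, with 15 members lower and 1 higher at an unadjusted p under 0.05; DESeq2 then passed 9 members. With any single library left out, between 12 and 20 members passed.

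**Figure D1:**
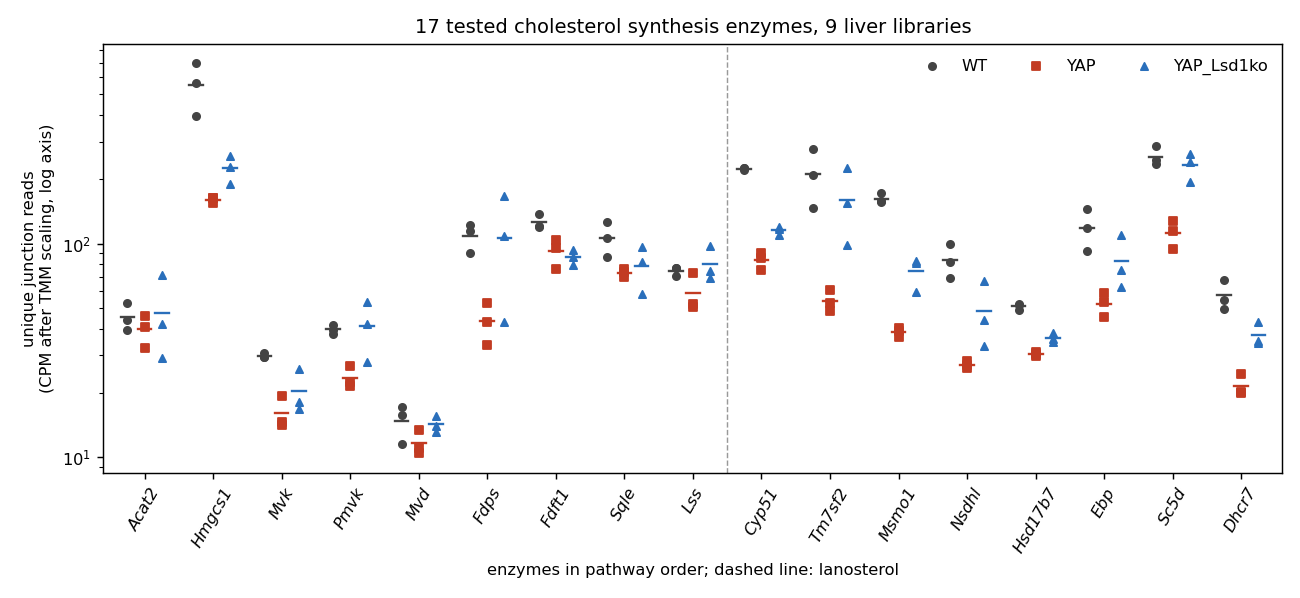
Level of the 17 tested synthesis enzymes in each library (CPM, log axis), in pathway order, with a line at each group mean. To the right of the dashed line, which marks lanosterol, all 8 enzymes had every YAP library below every WT library.

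The 8 enzymes that turn lanosterol into cholesterol all fell, with a median log2 fold change of -1.41 and a range from -2.07 to -0.75. This division of the pathway at lanosterol was made after the values were seen. Cyp51, the demethylase that acts on lanosterol itself, was at 224, 226 and 222 CPM in WT and at 90.6, 74.9 and 85.4 in YAP. Its libraries lay close together within each group and far apart between them (log2 fold change -1.42, SE 0.11, edgeR adjusted p = 0.00024).

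Msmo1, the methylsterol monooxygenase, had the lowest log2 fold change of the 31 tested members. It went from 171, 157 and 159 CPM in WT to 40.3, 36.4 and 39.0 in YAP, a 4.21-fold decrease (log2 fold change -2.07, SE 0.14, edgeR adjusted p = 0.000216). Tm7sf2, the sterol reductase next to Cyp51 in the pathway, stood at 278, 146 and 208 CPM in WT and at 60.6, 52.7 and 48.2 in YAP. Its WT libraries spread widely, yet none came near a YAP library (-1.97, SE 0.32, edgeR adjusted p = 0.00495). Nsdhl, the dehydrogenase that works with Msmo1 in removing methyl groups, was at 99.8, 69.0 and 82.1 CPM in WT and at 26.9, 28.3 and 26.1 in YAP, again with no overlap (-1.63, SE 0.24, edgeR adjusted p = 0.00335).

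Dhcr7, which reduces a double bond of the B ring on the way to cholesterol, went from 49.6, 67.9 and 54.2 CPM to 24.4, 20.2 and 19.9 (-1.41, SE 0.16, edgeR adjusted p = 0.000891). Sc5d, the desaturase before it, went from 285, 236 and 245 CPM to 127, 94.2 and 114 (-1.19, SE 0.17, edgeR adjusted p = 0.00241). Ebp, the sterol isomerase, went from 145, 92.0 and 118 CPM to 58.6, 45.2 and 53.4 (-1.18, SE 0.23, edgeR adjusted p = 0.0108). In none of these 3 genes did a YAP library reach a WT library. Hsd17b7, the ketosteroid reductase of the pathway, had the smallest change of the late enzymes, from 51.7, 52.1 and 49.0 CPM to 30.9, 30.4 and 29.8 with little spread within groups (-0.75, SE 0.09, edgeR adjusted p = 0.00163).

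Upstream of lanosterol the response was mixed: 4 of 9 tested enzymes fell, with a median log2 fold change of -0.55 and all 9 below 0. Hmgcs1, the HMG-CoA synthase that draws acetyl-CoA units into the pathway, changed most. It stood at 396, 696 and 563 CPM in WT and at a narrow 155, 164 and 163 in YAP (-1.78, SE 0.22, edgeR adjusted p = 0.00124). Its WT libraries were ordered opposite to those of Tm7sf2, with replicate 1 lowest for Hmgcs1 and highest for Tm7sf2. The kinases that phosphorylate mevalonate also fell. Mvk went from 29.4, 29.5 and 30.8 CPM to 19.3, 14.7 and 14.2 (-0.90, SE 0.19, edgeR adjusted p = 0.0131). Pmvk went from 37.7, 39.4 and 41.7 CPM to 26.6, 22.4 and 21.5 (-0.75, SE 0.21, edgeR adjusted p = 0.0388). Mvk lost its call without WT replicate 3, YAP replicate 2 or YAP replicate 3, and Pmvk without any 1 of the WT or YAP libraries or without YAP_Lsd1ko replicate 3.

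Fdft1, the squalene synthase, was at 137, 120.1 and 120.5 CPM in WT and at 104, 75.9 and 95.1 in YAP, at the edge of the threshold (-0.46, SE 0.14, edgeR adjusted p = 0.0499). It passed in 4 of the 23 alternative analyses. The other 5 early enzymes did not pass. Sqle, the squalene epoxidase, was lower in every YAP library (87.0 to 127 CPM in WT, 69.6 to 76.1 in YAP). Lss, the lanosterol synthase, overlapped between WT and YAP at 74.7 ± 3.71 and 58.6 ± 12.7 CPM (mean ± SD, n = 3). So did Mvd, the mevalonate diphosphate decarboxylase, at 14.9 ± 2.96 and 11.6 ± 1.54 CPM, and Acat2, the cytosolic thiolase, at 45.3 ± 6.66 and 39.7 ± 6.78 CPM.

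Fdps, which makes farnesyl diphosphate, is singled out here after its values were seen. It was at 122, 90.8 and 114 CPM in WT and at 52.9, 33.6 and 43.0 in YAP with no overlap, and it missed the threshold (-1.33, SE 0.41, edgeR adjusted p = 0.0554). A further 7 of its junctions are shared with the gene model Gm43738 and were not counted. With shared junctions counted, a setting chosen after seeing the data, its log2 fold change was -1.41 (edgeR adjusted p = 0.0392).

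Idi1, the isomerase between mevalonate and farnesyl diphosphate, had 0 to 6 unique reads a library, since 99.5% of its junction reads mapped to more than 1 place. Its multi-mapped reads numbered 947, 828 and 970 in WT, against 487, 417 and 497 for YAP and 472, 501 and 628 for YAP_Lsd1ko, not scaled for depth. With these added to the unique reads, its log2 fold change in YAP against WT was -1.27 (SE 0.17, edgeR adjusted p = 0.00207). Such reads may come from near-identical copies, so the value is uncertain. Acat2 (83.8% multi-mapped), Fdft1 (27.1%) and Insig1 (22.8%) were the other members with over 20% of reads of this kind.

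Summed over all 18 enzymes, synthesis transcripts came to 2256, 2275 and 2250 CPM in WT and to 1017, 865 and 929 in YAP, which was 41.5% of the WT mean. The WT sums lay close together, while over the same 3 libraries the hepatocyte marker sum was 60529, 39534 and 47649 CPM. Without Hmgcs1 the WT sums were 1860, 1580 and 1687 CPM. Without Hmgcs1 the YAP sum was 45.5% of WT, and the hepatocyte marker sum was 56.1% of WT.

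**Figure D2:**
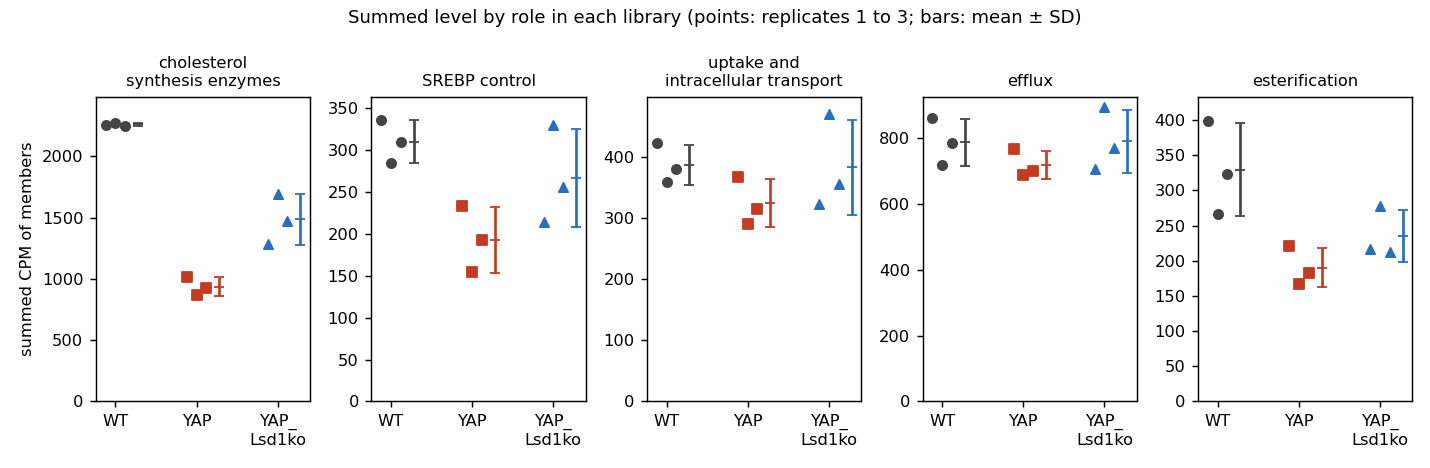
Summed CPM of the members of each role in every library, with mean ± SD (n = 3). The synthesis sum lay between 2250 and 2275 CPM in WT, between 865 and 1017 in YAP and between 1286 and 1696 in YAP_Lsd1ko, while the 3 efflux groups overlapped.

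Of the genes of SREBP control, Scap and Insig2 fell and the others did not pass. Srebf2, which encodes SREBP2 itself, overlapped at 17.5 ± 1.83 CPM in WT and 17.8 ± 3.43 in YAP (mean ± SD, n = 3). Scap, the escort, went from 105, 72.8 and 79.2 CPM to 47.4, 38.5 and 44.5, with no overlap (-0.98, SE 0.18, edgeR adjusted p = 0.00694). Insig2, which retains SCAP, went from 54.8, 57.5 and 56.3 CPM to 16.8, 20.6 and 22.3, also with no overlap (-1.50, SE 0.15, edgeR adjusted p = 0.000578). Insig1, its paralog and a known SREBP target, overlapped at 160.4, 134 and 158 CPM in WT and 147, 78.5 and 110.3 in YAP, and did not pass. Per annotated junction, the level of Insig1 was 37.7 CPM in WT and 28 in YAP, and that of Insig2 was 14.1 and 4.97.

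Among genes of uptake and intracellular transport, Stard4 fell and the others did not pass. Stard4, a cytosolic sterol carrier, was at 65.0, 53.0 and 60.1 CPM in WT and at 39.5, 26.5 and 31.5 in YAP (-0.87, SE 0.18, edgeR adjusted p = 0.0123); the call was lost without WT replicate 3 or without YAP replicate 3. Npc1, which exports cholesterol from lysosomes, was lower in every YAP library (165 to 195 CPM in WT, 115 to 157 in YAP). Scarb1, the receptor for high-density lipoprotein, overlapped at 144 ± 11.3 and 149 ± 10.3 CPM (mean ± SD, n = 3). Mylip, a ubiquitin ligase that removes lipoprotein receptors from the cell surface, stood at 6.34, 6.29 and 8.51 CPM in WT and at 11.7, 10.9 and 8.15 in YAP, with overlap and no pass. Npc1l1, a sterol importer of the apical membrane, had 0 reads in every WT and YAP library, where 3 reads would correspond to 0.349 to 0.488 CPM, and 4 reads in YAP_Lsd1ko replicate 1.

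Of the efflux genes, Abcg8 fell and the others did not pass. Abca1, which loads cholesterol onto apolipoproteins, overlapped at 545, 549 and 552 CPM in WT and 619.7, 499 and 542 in YAP (0.01, SE 0.14, edgeR adjusted p = 0.957). Abcg5 overlapped at 196, 109 and 149 CPM in WT and 124, 159 and 134 in YAP. Abcg8, whose product pairs with that of Abcg5 to secrete sterols into bile, was at 119, 59.2 and 85.0 CPM in WT and at 22.7, 29.0 and 22.9 in YAP, a 3.53-fold decrease with no overlap (-1.82, SE 0.35, edgeR adjusted p = 0.00968).

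The 2 genes lie head to head on chromosome 17 (mm10), Abcg5 on the minus strand from 84658234 to 84683011 and Abcg8 on the plus strand from 84676302 to 84700333. Their annotated spans overlap, and the strand of each junction keeps their reads apart. The ratio of Abcg5 to Abcg8 reads, chosen after the levels were seen, was 1.64, 1.85 and 1.76 in WT; the YAP values were 5.48, 5.47 and 5.87, and those of YAP_Lsd1ko were 4.38, 3.70 and 5.56. Relative to WT the ratio was 3.21-fold in YAP and 2.57-fold in YAP_Lsd1ko, with every transgenic library above every WT library. The latter was 2.82-fold without the library labelled YAP_Lsd1ko replicate 2. An exact two-sided permutation test on the log2 ratios gave p = 0.1 for both, the smallest that 3 against 3 libraries allow, and p = 0.3 for YAP_Lsd1ko against YAP.

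Of the esterification genes, Lcat fell and the acyltransferases Soat1 and Soat2 did not pass. Lcat, secreted by hepatocytes to esterify cholesterol in plasma, was at 341, 204 and 262 CPM in WT and at 139, 101 and 108 in YAP (-1.21, SE 0.24, edgeR adjusted p = 0.0101); the call was lost without YAP replicate 3. Soat2, the acyltransferase of hepatocytes and enterocytes, overlapped at 45.3, 31 and 38.6 CPM in WT and 38.3, 18.5 and 25.1 in YAP. Soat1, the acyltransferase prominent in macrophages, had the highest log2 fold change of the tested members and was singled out after its values were seen. It stood at 11.9, 31.9 and 23.6 CPM in WT, at 43.6, 47.3 and 49.5 in YAP and at 47.2, 12.7 and 32.2 in YAP_Lsd1ko. Every YAP library was above every WT library, but the test did not pass (1.06, SE 0.45, edgeR adjusted p = 0.134).

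The summed macrophage markers in the same order of libraries were 528, 1120 and 860 CPM for WT, 2398, 2809 and 2658 for YAP, and 2399, 516 and 1623 for YAP_Lsd1ko. In WT and in YAP_Lsd1ko the libraries thus had the same order for Soat1 and for the markers, whereas in YAP Soat1 was highest in replicate 3 and the markers in replicate 2. None of the 10 markers was at 0, and the part of macrophages in the Soat1 level was not tested.

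**Figure D3:**
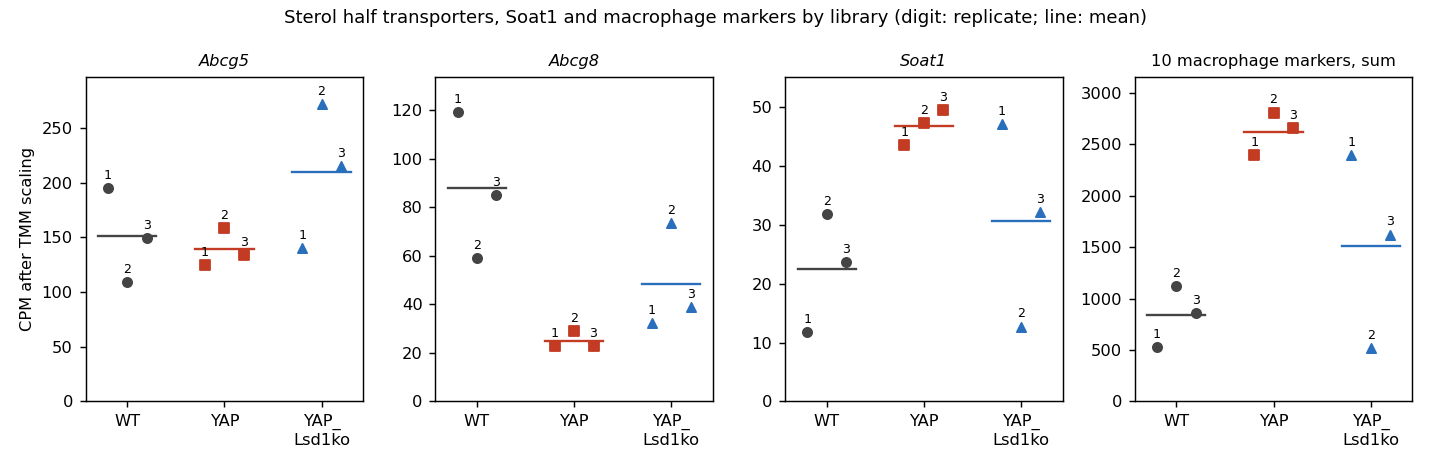
Abcg5, Abcg8, Soat1 and the sum of 10 macrophage markers in each library (CPM after TMM scaling); digits give the replicate and lines the group mean. Abcg8 lay between 22.7 and 29.0 CPM in YAP against 59.2 to 119 in WT, while Abcg5 overlapped; Soat1 and the marker sum were both lowest in WT replicate 1 and in the library labelled YAP_Lsd1ko replicate 2 within their groups.

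In the livers labelled YAP_Lsd1ko, 4 synthesis enzymes stood higher than in YAP livers. Of the 31 tested members 4 rose and 0 fell, against 1.75% of all genes that rose and 0.367% that fell (2.12% in all). All 4, Msmo1, Sc5d, Tm7sf2 and Dhcr7, lie between lanosterol and cholesterol. The median log2 fold change was 0.47 over the members and -0.0087 over all genes, and 25 of 31 members were above 0. In 15 members every YAP_Lsd1ko library was above every YAP library, and in 1, Mylip, every library was below, against 12.5% and 11.5% of all genes. At an unadjusted p under 0.05 edgeR counted 17 members higher and 1 lower among 2029 genes, and DESeq2 passed 9, all higher, among 712 genes. This comparison shares its YAP libraries with that of YAP against WT.

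Tm7sf2 had the largest of these rises, to 98.5, 225 and 155 CPM in YAP_Lsd1ko from 48.2 to 60.6 in YAP (log2 fold change 1.56, SE 0.32, edgeR adjusted p = 0.0462). Sc5d rose to 194, 262 and 241 CPM from 94.2 to 127 (1.06, SE 0.17, edgeR adjusted p = 0.017). Msmo1 rose to 59.4, 83.2 and 81.1 CPM from 36.4 to 40.3 (0.95, SE 0.14, edgeR adjusted p = 0.0149). In each of them, as in Dhcr7, the lowest YAP_Lsd1ko library was replicate 1 and the highest was the library labelled replicate 2. That library also had the highest hepatocyte marker sum of its group (48237 CPM, against 26248 and 37218). Dhcr7 rose to 34.1, 42.8 and 35.0 CPM from 19.9 to 24.4 (0.79, SE 0.16, edgeR adjusted p = 0.0441). The lower Yap1 level in YAP_Lsd1ko moved with these rises, and its part in them was not tested.

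The count of 4 changed with the libraries left out. Fitted to the YAP and YAP_Lsd1ko libraries alone, edgeR passed 2; at an unadjusted p under 0.05 it counted 16 members higher. In the 3-group fit the count was also 2 when the library labelled YAP_Lsd1ko replicate 2 was dropped, with Msmo1 and Sc5d still passing, and without YAP_Lsd1ko replicate 1 it was 10. Without YAP_Lsd1ko replicate 3 or any 1 of the 3 YAP libraries it was 0, with 12 to 17 members higher at an unadjusted p under 0.05 by edgeR, and without WT replicate 3 it was 1.

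The remaining 13 members that had fallen in YAP did not pass in this comparison. Cyp51 was at 110.2, 117 and 120.1 CPM (0.47, SE 0.11, edgeR adjusted p = 0.0675) and Nsdhl at 33.2, 67.1 and 44.0 CPM (0.82, SE 0.24, edgeR adjusted p = 0.124), both above every YAP library. Pmvk was at 28, 53.4 and 41.9 CPM (0.80, SE 0.21, edgeR adjusted p = 0.0971) and Ebp at 62.4, 110.1 and 75.5 (0.66, SE 0.23, edgeR adjusted p = 0.191), again with no overlap. Hmgcs1 at 258, 189 and 228 CPM (0.49, SE 0.21, edgeR adjusted p = 0.256) and Hsd17b7 at 38.2, 34.6 and 35.9 CPM (0.25, SE 0.09, edgeR adjusted p = 0.205) also lay above every YAP library. Mvk and Fdft1 overlapped with YAP (0.34, SE 0.19, edgeR adjusted p = 0.373, and -0.09, SE 0.14, edgeR adjusted p = 0.76, respectively).

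Scap at 64.9, 77.7 and 54.8 CPM (0.60, SE 0.18, edgeR adjusted p = 0.126) and Insig2 at 23.2, 30.8 and 30.8 CPM (0.51, SE 0.15, edgeR adjusted p = 0.126) lay above every YAP library. Stard4 was at 44.3, 63.0 and 52.5 CPM (0.71, SE 0.18, edgeR adjusted p = 0.0869), Abcg8 at 32.1, 73.6 and 38.8 (0.95, SE 0.34, edgeR adjusted p = 0.199) and Lcat at 153, 237 and 165 (0.67, SE 0.24, edgeR adjusted p = 0.186), each with no library overlapping YAP. Mylip, at 8.06, 5.62 and 6.89 CPM, was below every YAP library and did not pass. Srebf2 (17.6 ± 6.42 CPM) and Abca1 (532 ± 16.1 CPM, mean ± SD, n = 3) again overlapped with YAP. Fdps overlapped as well, with YAP_Lsd1ko libraries at 43.2, 167 and 109 CPM.

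**Figure D4:**
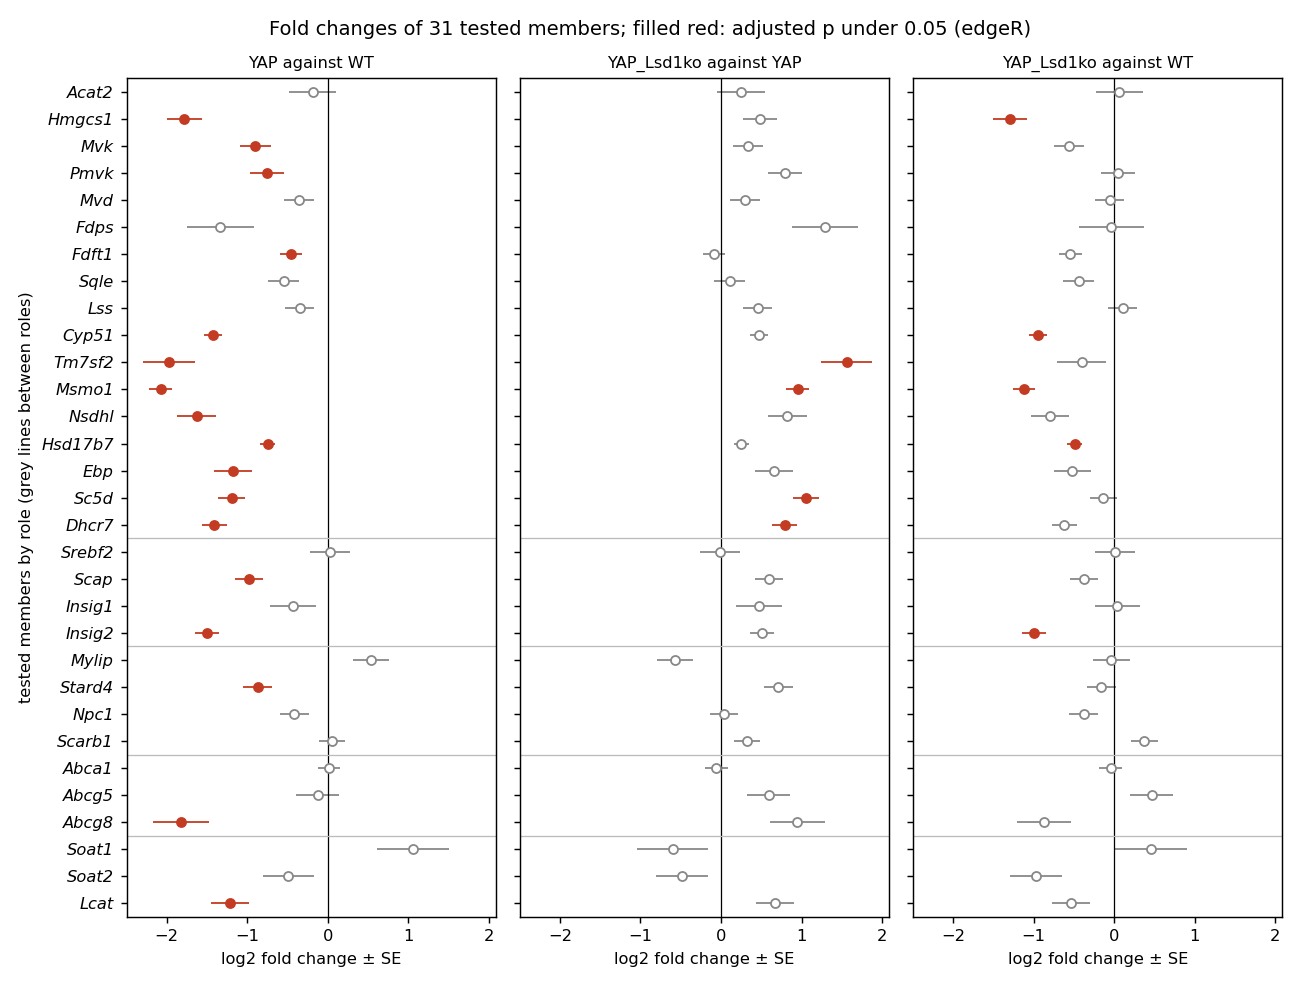
Log2 fold change ± SE of the 31 tested members, by role, in the 3 comparisons; filled red points have an edgeR adjusted p under 0.05. The 17 red points in YAP against WT are all below 0 and the 4 in YAP_Lsd1ko against YAP are all above 0.

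Against WT, the YAP_Lsd1ko livers had lower levels of 5 members. Of the 31 tested members 5 fell and 0 rose, against 0.927% and 1.12% of all genes (2.05% in all). At an unadjusted p under 0.05 edgeR counted 14 lower and 1 higher among 1659 genes, and DESeq2 passed 7, all lower, among 597 genes. The median log2 fold change was -0.38 over the members and -0.00099 over all genes. The 5 were Hmgcs1 (log2 fold change -1.30, SE 0.21, edgeR adjusted p = 0.0191), Msmo1 (-1.12, SE 0.14, edgeR adjusted p = 0.00628), Insig2 (-0.99, SE 0.15, edgeR adjusted p = 0.0127), Cyp51 (-0.95, SE 0.11, edgeR adjusted p = 0.00579) and Hsd17b7 (-0.49, SE 0.09, edgeR adjusted p = 0.0353). The call of Hsd17b7 held in 5 of 23 alternatives and was lost on leaving out any single library other than YAP_Lsd1ko replicate 2. In 10 members every YAP_Lsd1ko library was below every WT library, against 9.91% of all genes, and in 0 was every library above, against 7.68%. This comparison shares its libraries with both of the others.

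Cyp51 had separate levels in the 3 groups, at 222 to 226 CPM in WT, 110.2 to 120.1 in YAP_Lsd1ko and 74.9 to 90.6 in YAP. Insig2, Hmgcs1, Msmo1, Nsdhl, Hsd17b7 and Dhcr7 were likewise ordered WT, YAP_Lsd1ko, YAP with no overlapping libraries. The share of all genes in this order of 3 groups was not computed. By pairs, 22.8% of all genes were lower in YAP than in WT without overlap, and 9.91% lower in YAP_Lsd1ko than in WT. In 12.5% every YAP_Lsd1ko library was above every YAP library. Sc5d was at 91.1% of the WT mean in YAP_Lsd1ko and at 43.8% in YAP, and its YAP_Lsd1ko libraries overlapped WT (-0.13, SE 0.16, edgeR adjusted p = 0.765). Tm7sf2 overlapped WT too, at 75.6% of the WT mean (-0.41, SE 0.31, edgeR adjusted p = 0.602). Msmo1 was at 46.0% of the WT mean and Hmgcs1 at 40.7%. With YAP_Lsd1ko replicate 2 left out, Sc5d was at 85.3%, Tm7sf2 at 60.1%, Msmo1 at 43.3% and Hmgcs1 at 44.0%. No test compared these members with each other.

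The other members that had passed elsewhere did not pass against WT. Dhcr7 (-0.62, SE 0.16, edgeR adjusted p = 0.0885), Fdft1 (-0.54, SE 0.14, edgeR adjusted p = 0.0912) and Nsdhl (-0.80, SE 0.24, edgeR adjusted p = 0.141) lay below WT in every library. So did Mvk (-0.56, SE 0.19, edgeR adjusted p = 0.179). Abcg8 (-0.87, SE 0.34, edgeR adjusted p = 0.255), Lcat (-0.54, SE 0.23, edgeR adjusted p = 0.316), Ebp (-0.52, SE 0.23, edgeR adjusted p = 0.327) and Scap (-0.38, SE 0.17, edgeR adjusted p = 0.343) overlapped WT. Stard4 (-0.16, SE 0.18, edgeR adjusted p = 0.741) and Pmvk (0.05, SE 0.21, edgeR adjusted p = 0.939) overlapped as well, the latter at 104% of the WT mean. Soat2, at 16.7, 28 and 14.2 CPM, was below every WT library without passing.

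Without the library labelled YAP_Lsd1ko replicate 2 the count against WT was 10, with Mvk, Nsdhl, Dhcr7, Abcg8 and Soat2 added. Without WT replicate 3 or YAP_Lsd1ko replicate 3 it was 2, and without YAP replicate 3 it was 3.

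By role, the mean of YAP_Lsd1ko was 65.7% of WT for the synthesis sum (YAP, 41.5%), 86.0% for SREBP control (YAP, 62.2%) and 71.4% for esterification (YAP, 57.7%). In WT, Lcat held 269 of the 330 CPM of the esterification sum, and Insig1 held 151 of the 310 CPM of SREBP control. Sums for uptake and intracellular transport were 98.9% of WT in YAP_Lsd1ko and 83.7% in YAP. Of the 387 CPM of that sum in WT, Npc1 held 177 and Scarb1 held 144. The sums for efflux, dominated by Abca1, were 100.3% and 91.1%. With replicate 2 left out, the YAP_Lsd1ko sums came to 61.1% for synthesis, 75.8% for SREBP control and 65.0% for esterification. They came to 87.6% for uptake and intracellular transport and 93.7% for efflux. The synthesis sum of the library labelled YAP_Lsd1ko replicate 2 was 1696 CPM, below every WT library. Its hepatocyte marker sum of 48237 CPM lay within the WT range, and the part of hepatocytes in the sum was not tested.

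In YAP against WT all 9 junctions of Cyp51, all 11 of Hmgcs1, all 9 of Tm7sf2, all 6 of Dhcr7, all 4 of Insig2 and all 5 of Lcat passed the edgeR test below 0, against 12% of 73170 junctions tested that passed in either direction. The junction fold changes of Cyp51 ran from -1.58 to -1.06 on the log2 scale and those of Hmgcs1 from -1.99 to -1.62. For Abcg8 all 13 junctions were below 0 and 11 passed, whereas for Abcg5 8 of 12 were below 0 and 0 passed. All 14 junctions of Soat1 were above 0, 2 of them passing, and all 23 of Npc1 were below 0 with 0 passing. Abca1 had 17 junctions below 0 and 32 above 0. In YAP_Lsd1ko against YAP 8 of 9 junctions of Tm7sf2 passed, 3 of 5 of Msmo1 and 3 of 5 of Sc5d, all above 0, and 0 of 6 of Dhcr7 (1.55% of all junctions). Without the library labelled YAP_Lsd1ko replicate 2 these were 5 of 9, 3 of 5, 2 of 5 and 0 of 6 (0.905% of all junctions). In YAP_Lsd1ko against WT 11 of 11 of Hmgcs1, 6 of 9 of Cyp51, 4 of 5 of Msmo1 and 3 of 4 of Insig2 passed, all below 0 (1.42% of all junctions). Without that library they were 11, 7, 4 and 4 (3.41% of all junctions). Junctions of a gene are read from the same molecules and are not replicates.

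**Figure D5:**
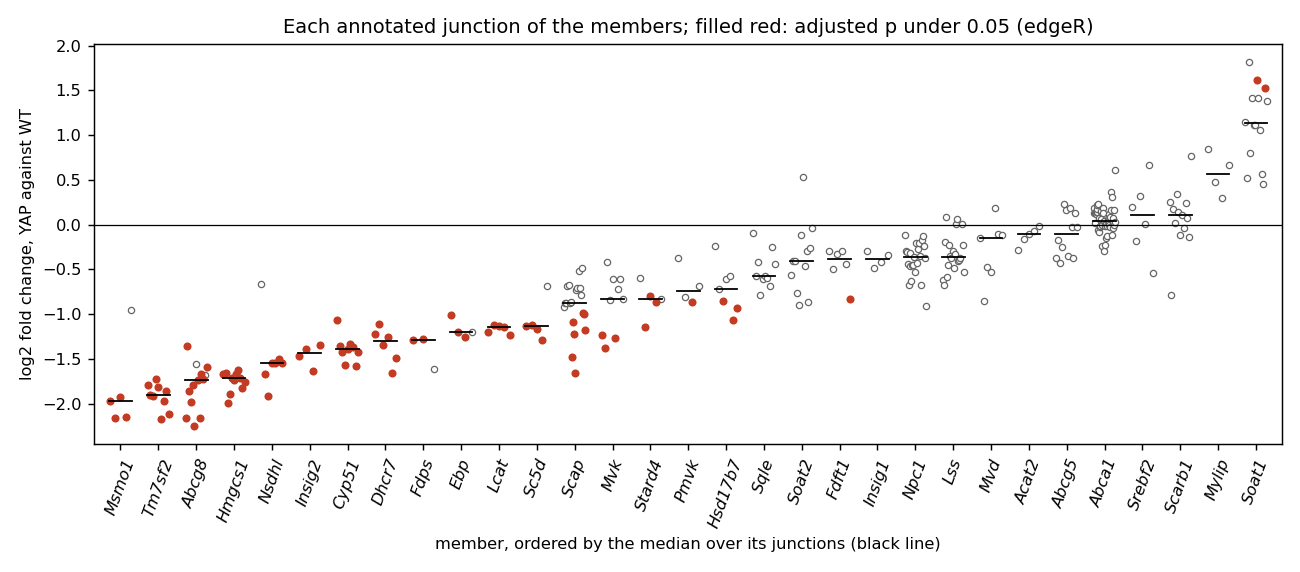
Log2 fold change of every tested junction of the members in YAP against WT, with the median of each member as a black line; filled red points have an edgeR adjusted p under 0.05. Junctions of Cyp51 lie between -1.58 and -1.06 and those of Hmgcs1 between -1.99 and -1.62, and those of Abca1 and Scarb1 straddle 0.

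A shift in which junctions a gene used was tested with edgeR over 7791 genes with more than 1 junction. Of the 31 members 0 passed in YAP against WT, 0 in YAP_Lsd1ko against YAP and 0 in YAP_Lsd1ko against WT. In each comparison 0 members had an unadjusted p under 0.05 and 0 passed when edgeR was fitted to the libraries of the 2 groups alone. Over all genes 0.116%, 0.0385% and 0.0513% passed.

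Neighbouring pathways were read from lists of other genes. Of 14 tested genes of the non-sterol branches of the mevalonate pathway, which lead to prenylated proteins, dolichol and ubiquinone, edgeR passed 0 in each comparison. In YAP against WT 2 of them were lower and 0 higher at an unadjusted p under 0.05, in the other comparisons 0, and the list's median log2 fold change was -0.13. Among 25 tested genes of other sterol handling 4 fell and 0 rose in YAP, against 10% and 7.44% of all genes, with a median of 0.05. They were Cyp7b1 (-5.85, SE 0.65, edgeR adjusted p = 0.000971) and Cyp7a1 (-1.90, SE 0.29, edgeR adjusted p = 0.00365), hydroxylases of bile acid synthesis, Gramd1c, a carrier of sterols between membranes (-1.61, SE 0.12, edgeR adjusted p = 0.000226), and Tmem97, a sterol-responsive membrane protein (-1.05, SE 0.19, edgeR adjusted p = 0.00692). Cyp7b1 (3.18, edgeR adjusted p = 0.0396) and Gramd1c (0.98, edgeR adjusted p = 0.00795) rose in YAP_Lsd1ko against YAP, where 1.75% of all genes rose, and both fell against WT (-2.67, edgeR adjusted p = 0.0453, and -0.64, edgeR adjusted p = 0.0293), where 0.927% fell. Without the library labelled YAP_Lsd1ko replicate 2 the rise of Cyp7b1 did not pass and that of Cyp7a1 did, and the other 3 calls held.

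Of 19 tested genes of fatty acid synthesis and SREBP1, 6 fell and 1 rose in YAP against WT, where 10% and 7.44% of all genes did, with a median of -0.71. The falls with the smallest p were those of the elongase Elovl5 (-1.79, edgeR adjusted p = 0.000225), malic enzyme Me1 (-2.48, edgeR adjusted p = 0.00358), the desaturase Fads2 (-2.03, edgeR adjusted p = 0.00395) and the carboxylase Acacb (-2.12, edgeR adjusted p = 0.0131). The carboxylase Acaca rose (1.11, edgeR adjusted p = 0.0251). In YAP_Lsd1ko against YAP 5 of the 19 rose and 0 fell, against 1.75% and 0.367% of all genes, with a median of 0.94. The smallest p were those of Acacb (2.74, edgeR adjusted p = 0.0205), Elovl5 (0.63, edgeR adjusted p = 0.0418), Me1 (1.80, edgeR adjusted p = 0.0462) and the fatty acid synthase Fasn (1.80, edgeR adjusted p = 0.0467). Against WT 1 fell, Elovl5 (-1.15, edgeR adjusted p = 0.00459), and 0.927% of all genes fell. Without the library labelled YAP_Lsd1ko replicate 2 Acacb and Fasn alone rose against YAP (1.23% of all genes rose), and Elovl5, Fads2 and Me1 fell against WT (2.05% of all genes fell).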

How the data were processed

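Spliced reads were measured in 9 libraries of total RNA depleted of ribosomal RNA, prepared with a stranded kit from samples with a RIN of 8 or higher, per the labels' protocols. The deposited files list, for each splice junction, raw counts of uniquely mapped and multi-mapped reads as the authors' aligner wrote them. The submitters' processing notes name bcl2fastq, FastQC, STAR, featureCounts, edgeR and the build mm10, and the aligner's annotation was not given in the sources used here. Of 251612 junctions with reads 145706 matched annotated introns of a single gene, and their unique counts were summed per gene, which leaves out single-exon genes and unspliced reads and weights genes with more introns.

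Counts were tested with edgeR 4.0.16 in R 4.3.3 (filterByExpr, TMM, robust quasi-likelihood test, all 9 libraries in a single fit, Benjamini-Hochberg adjustment over 10897 genes, threshold 0.05). For junction usage edgeR's diffSpliceDGE was run, and the Abcg5 to Abcg8 ratio with exact permutation tests in scipy 1.17.1. The fit was also tested on simulated data for YAP against WT, with 200 of 10897 genes changed. It recovered 29% of genes changed 2-fold and 81% of those changed 4-fold, and 5 of its 115 calls were false. In the real comparison 1901 genes passed, so these rates may not carry over to it. Alternatives were DESeq2 1.42.0, other scalings and filters, the fit to 2 groups, a replicate block, multi-mapped reads added, the most-read junction of a gene, and leaving out each library or each replicate number; counting shared junctions and DESeq2 without replicate 3 were chosen after seeing the data.

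The members and lists were chosen with earlier results of these data known. Every member is described; a fold change with its test is given for members passing in at least 1 comparison, and of each other list up to 4 passing genes with the smallest p in each comparison are named. Intervals and floors cover counting error alone. Promoters came from RefSeq GRCm38.p6, and figures were drawn with matplotlib 3.10.9.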

Additional observations from a re-analysis of the deposited data

Results flagged for a closer look

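Multi-mapped junction reads entered none of the main comparisons, and in 2 members every library of a transgenic group was above every WT library for these reads. The share of all genes with that order was not computed. Only this upward order was searched for, in groups with at least 10 such reads. The opposite order also occurred among the members. For each 1e6 reads, Hmgcs1 had 6.20 to 7.24 in YAP and 17.4 to 31.5 in WT. Idi1 had 48.5 to 60.4 in YAP and 124 to 154 in WT. For Scarb1 they averaged 14.2 for each 1e6 reads in YAP and 17.9 in YAP_Lsd1ko, against 10.9 in WT, with every library of both groups above every WT library. For Soat1 they averaged 3.11 for each 1e6 reads in YAP and 1.41 in WT, and every YAP library was likewise above every WT library. Scarb1 unique reads overlapped between WT and YAP, and those of Soat1 had the same order of groups as its multi-mapped reads.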

How the results depend on the processing

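The fold changes of the 17 members that passed in at least 1 comparison were refitted under 23 alternatives: 331 of YAP against WT kept their direction and their side of the threshold and 60 lost the call. In YAP_Lsd1ko against YAP 332 were kept, 41 lost, 17 gained and 1 reversed, and against WT 339, 33, 11 and 8. The other 14 tested members gained 14 calls in YAP against WT (Fdps, Idi1, Mylip, Soat1 and Sqle), 4 in YAP_Lsd1ko against YAP (Fdps and Insig1) and 4 against WT (Idi1, Scarb1 and Soat2). The count of all genes passing in YAP against WT, 1901, was 1070 with the most-read junction, and with DESeq2 without replicate 3 it was 474, with 9 members. In YAP_Lsd1ko against YAP 231 genes passed, against 712 by DESeq2 (9 members), 146 with library size alone, 109 with 2 groups only (2 members), 148 with the most-read junction and 85 by DESeq2 without replicate 3 (0 members, 6 at an unadjusted p under 0.05). In YAP_Lsd1ko against WT 223 passed, against 597 by DESeq2, 83 with 2 groups only (3 members), 113 with the most-read junction (3 members) and 75 by DESeq2 without replicate 3 (2 members).

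Leaving out libraries or replicate numbers gave 0 to 2729 genes and 0 to 20 members in YAP against WT, 0 to 919 and 0 to 12 in YAP_Lsd1ko against YAP, and 0 to 804 and 0 to 10 in YAP_Lsd1ko against WT. Without replicate 3 of every group edgeR passed 0 genes in each, with 1476, 499 and 481 at an unadjusted p under 0.05. The log2 fold changes that reversed were small. In YAP_Lsd1ko against YAP Fdft1 ran from -0.20 to 0.0152. Against WT, leaving out libraries gave -0.19 to 0.26 for Pmvk, -0.94 to 0.0947 for Tm7sf2, -0.28 to 0.0663 for Sc5d and -0.37 to 0.0265 for Stard4. Library size alone gave 0.0318 for Sc5d and 0.0072 for Stard4, and the most-read junction -0.0288 for Pmvk. The causes of these changes were not tested.

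Replicate numbers are shared across groups, but same-numbered libraries did not deviate together: correlations ran from -0.67 to 0.35, and 4 of 9 libraries correlated best with their own number. With the replicate block 1027 genes and 15 members passed in YAP against WT, 46 genes and 0 members in YAP_Lsd1ko against YAP (17 members at an unadjusted p under 0.05 by edgeR), and 89 genes and 3 members in YAP_Lsd1ko against WT. Depth limits Mylip, Mvd and Srebf2, whose levels were low, and the share of multi-mapped reads limits Idi1 and Acat2.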

Other observations

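Abcg8 has a pair of splice acceptors that lie 3 bases apart, joined to a donor at position 84683295 of chromosome 17 (mm10), with intron ends at 84686616 and 84686619. This pair was picked out after its values were seen. The share of reads using the first acceptor was 49.0%, 47.7% and 44.2% in the WT libraries, 26.7%, 40.6% and 33.3% in YAP, and 34.2%, 34.9% and 30.0% in YAP_Lsd1ko, whose mean was 33.0% with and 32.1% without the library labelled replicate 2. Every transgenic library was below every WT library. The exact two-sided permutation p was 0.1 for either group against WT, the smallest that 3 against 3 libraries allow, and 1.0 between the transgenic groups. Over the 13 tested junctions of Abcg8, edgeR's junction usage test gave an unadjusted p of 0.981 in YAP against WT. In YAP_Lsd1ko against WT that test gave 0.980. How many other acceptor pairs had such an order of libraries was not computed. Each share rests on 21 to 102 reads, with exact Clopper-Pearson 95% intervals as wide as 14.6% to 57.0% in YAP replicate 3.

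Cyp7b1, which hydroxylates oxysterols on the acidic route to bile acids, had the lowest log2 fold change of the sterol handling genes listed beside the members. It stood at 362, 106 and 225 CPM in WT and at 2.46, 4.89 and 4.62 in YAP. In YAP_Lsd1ko its libraries were at 14.9, 53.8 and 40.9 CPM, between the other groups with no overlap. Elovl5, which elongates polyunsaturated fatty acids, was ordered in the same way, at 173 to 220 CPM in WT, 81.2 to 95.8 in YAP_Lsd1ko and 53.5 to 56.7 in YAP. The share of all genes in this order was not computed.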
